A study of Macaca mulatta with 4 samples.

Results

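The regulators of the epithelial-mesenchymal transition were examined in RF/6A, a line of rhesus macaque (Macaca mulatta) eye cells that the labels call chorioretinal. The set was a list of 10 symbols, split into 6 mesenchymal drivers (SNAI1, SNAI2, ZEB1, ZEB2, TWIST2 and TCF4) and 4 epithelial guardians (GRHL2, ESRP1, ESRP2 and OVOL1). Of these, 9 had a row among the 21314 genes of the count table, and SNAI1 matched none. Its counts may lie in 1 of the 6660 rows that carry no symbol, so no value is given for it. All 4 libraries were total RNA of the untreated line, purchased from ATCC, grown in serum-containing medium and titled as static. They form 1 group of replicates 1 to 4, and RF/6A is a single line, so the spread describes these libraries and not differences between animals. Nothing in the labels says whether the libraries came from separate cultures.

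In the epithelial-mesenchymal transition, epithelial cells lose their junctions and take on the shape and matrix production of mesenchymal cells. The SNAI and ZEB zinc finger proteins bind E-box sequences and repress epithelial genes such as CDH1, and TWIST proteins act as dimers with E proteins such as TCF4. GRHL, OVOL and ESRP proteins hold the epithelial state, GRHL and OVOL through transcription and ESRP through splicing. These roles were worked out mainly in human and mouse cells.

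RF/6A carried transcripts of every matched mesenchymal driver and little of the epithelial guardians. All 5 drivers with a row reached 1 CPM (counts-per-million) in every library, the threshold used here to call a gene expressed, and 1 of the 4 guardians, OVOL1, did. Of all 21314 rows 52.9% passed the same rule, and of the 14654 rows with a symbol 64.2% did. GRHL2 had no count in any library, and ESRP1 and ESRP2 stayed under 1 CPM except for ESRP2 in library 2. Library 2 had lower ZEB1, ZEB2 and TCF4 and higher OVOL1 than the other 3 libraries.

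Totals lay between 20366946 and 20550610 estimated counts. In a library a count of 0 allows a true value of up to 3 counts by a 1-sided 95% limit, or 0.135 to 0.185 CPM. Such limits cover counting error only. Library 2 stood apart over the whole table. Over the 12453 genes averaging 1 CPM or more, Pearson's r of log2(CPM + 0.5) was 0.98 to 0.99 among libraries 1, 3 and 4 and 0.80 to 0.83 for pairs with library 2 (across genes, which are not replicates). Library 2 lay apart by Dixon's gap test and was lower for 21.5% of these genes and higher for 14.7%, while any of the other 3 lay apart for 0.675%. The 66 ribosomal protein genes took 16.1% of counts in library 2 and 6.43% to 7.07% in the others. Means of the listed regulators are therefore given with and without library 2, other genes where it moved a mean by over 1.5 times, and the part of these shifts in the results was not tested.

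SNAI2 (ENSMMUG00000016195), a zinc finger repressor also needed in neural crest and in many mesenchymal cells, was the steadiest member. It measured 107, 90.7, 104 and 106 CPM in libraries 1 to 4. Library 2 was the lowest, but by the gap test it did not lie apart. The mean was 102 ± 7.56 CPM (SD, n = 4) and 106 ± 1.76 CPM without library 2 (n = 3), from 1471 to 2353 counts per library. Without library 2 the coefficient of variation was 1.67%, beside 2.07% for counting error alone, so libraries 1, 3 and 4 could not be told apart at this depth.

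ZEB1 (ENSMMUG00000015453), the repressor of CDH1 and of epithelial polarity genes, measured 38.6, 7.53, 37.3 and 33.5 CPM in libraries 1 to 4. Library 2 held 122 counts where the others held 741 to 849, and it lay apart from a narrow group. The mean was 29.2 ± 14.6 CPM (SD, n = 4) and 36.5 ± 2.65 CPM without library 2 (n = 3).

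ZEB2 (ENSMMUG00000016845), the other ZEB repressor, also known for its roles in neural crest and glia, measured 98.5, 19.3, 119 and 131 CPM. Again library 2 was far below the other 3, which did not overlap with it. The mean was 91.8 ± 50.2 CPM, and 116 ± 16.3 CPM without library 2. Among libraries 1, 3 and 4 its coefficient of variation was 14.1%, against 1.97% expected from counting, the widest spread beyond counting of the 5 drivers there.

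TCF4 (ENSMMUG00000012001), the E protein that pairs with TWIST factors, is not the Wnt pathway factor known by the same alias. It measured 73.4, 19.3, 70.6 and 63.6 CPM. As for the ZEB genes, library 2 was lower than all others. The mean was 56.7 ± 25.3 CPM (SD, n = 4) and 69.2 ± 5.02 CPM without library 2.

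TWIST2 (ENSMMUG00000021909), a basic helix-loop-helix factor of dermal and other mesenchyme, measured 7.28, 11.6, 6.47 and 7.42 CPM. It was the only driver highest in library 2, with 188 counts against 144 to 164. The mean was 8.19 ± 2.31 CPM, and 7.06 ± 0.512 CPM without library 2. TWIST1, its close relative in sequence, matched no row, so reads of TWIST1 assigned to TWIST2 cannot be told apart from its own. The same limit holds for SNAI1 and SNAI2. Strandedness is not given in the sources used here, and reads of antisense transcripts at the ZEB loci cannot be separated from ZEB1 and ZEB2.

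**Figure D1:**
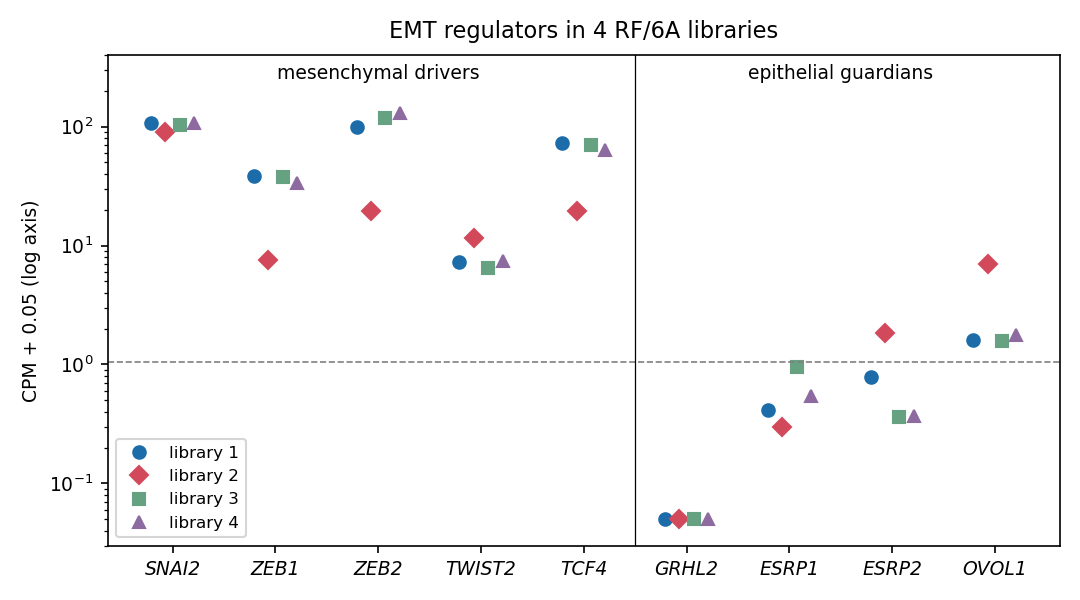
Level of each measured regulator in RF/6A by library, drawn as CPM + 0.05 on a log scale, where the dashed line stands for 1 CPM. Every driver lies above the line in every library, OVOL1 is the only guardian above it throughout, and the library 2 points of ZEB1 (7.53 CPM), ZEB2 (19.3 CPM) and TCF4 (19.3 CPM) lie below those of the other libraries.

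Among the guardians, GRHL2 (ENSMMUG00000020995), a grainyhead factor that activates CDH1 and claudin genes and restrains ZEB1, had 0 counts in all 4 libraries. At this depth it was not detectable, within the limit of 3 counts per library given above. The exact 95% Poisson limits, used below for ESRP1 and ESRP2, are wider and reached 0.166 to 0.228 CPM for GRHL2.

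ESRP1 (ENSMMUG00000021112), an RNA-binding protein that imposes epithelial splice forms, had 8, 4, 20 and 11 counts, or 0.364, 0.247, 0.899 and 0.497 CPM. No library reached 1 CPM. The exact 95% Poisson limits of library 2 (0.0672 to 0.632 CPM) and library 3 (0.549 to 1.39 CPM) overlapped. The mean was 0.502 ± 0.284 CPM (SD, n = 4), and 0.587 ± 0.278 CPM without library 2.

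ESRP2 (ENSMMUG00000021846), its paralogue, had 16, 29, 7 and 7 counts, or 0.728, 1.79, 0.314 and 0.317 CPM. Only library 2 passed 1 CPM. Its Poisson limits (1.198 to 2.57 CPM) lay above those of library 3 (0.126 to 0.648 CPM) and library 4 (0.127 to 0.652 CPM). They lay only just above those of library 1 (0.416 to 1.18 CPM), and that gap depends on the scaling used. By the gap test library 2 did not lie apart for ESRP2. The mean was 0.787 ± 0.696 CPM, and 0.453 ± 0.238 CPM without library 2.

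OVOL1 (ENSMMUG00000012585), a zinc finger repressor that acts against ZEB1 in epithelia, measured 1.55, 6.97, 1.53 and 1.72 CPM. Library 2, with 113 counts against 34 to 38, was the highest and lay apart. Libraries 1, 3 and 4 agreed within counting error, with a coefficient of variation of 6.58% against 16.8% expected. The mean was 2.94 ± 2.69 CPM (SD, n = 4) and 1.60 ± 0.105 CPM without library 2.

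The drivers and guardians were set side by side within each library by the difference of their medians of log2(CPM + 0.5). The difference was 6.16, 3.92, 6.06 and 6.15 log2 units in libraries 1 to 4, a mean of 5.57 ± 1.10 (SD, n = 4). The drivers were higher in 4 of 4 libraries, and library 2 had the smallest gap. The median of the drivers was 5.67 ± 0.91 and that of the guardians 0.09 ± 0.22, beside 3.13 ± 0.22 over the 17534 rows with a count. The guardians include GRHL2, which had no count, whereas rows without a count are left out of the last median. CPM is not divided by transcript length, and no transcript lengths were used, so this is a difference of counts between genes and not of molecules. It carries no p-value, since the members were chosen with results known. With OVOL1 as the only guardian kept by edgeR's filterByExpr, the difference was 4.14 ± 1.83.

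Library 2 was compared with the median of the other 3 gene by gene, a description of 1 library and not a test of a condition. Over all 12453 genes this difference had a median of -0.07 log2 units with trimmed-mean (TMM) scaling and -0.49 with plain CPM. ZEB2 was lower in library 2 by 6.16-fold, ZEB1 by 4.95-fold and TCF4 by 3.66-fold. On the log2(CPM + 0.5) scale these differences were -2.59, -2.24 and -1.84, lower than in all but 6.12%, 8.76% and 12.9% of the tested genes. OVOL1 was 4.51-fold higher, a difference of 1.87, above 97.1% of tested genes. TWIST2 was 1.59-fold higher (0.64) and SNAI2 differed by -0.23. By the gap test library 2 lay apart and lower for 3 of the 5 drivers, and lower genes made up 21.5% of all tested. It lay apart and higher for OVOL1, the 1 guardian averaging 1 CPM or more, where 14.7% of all tested genes did. With plain CPM, SNAI2 joined the lower drivers, making 4 of 5 against 30.4% of all genes, while OVOL1 stayed higher, as 7.25% did. DESeq2 size factors gave 3 of 5 lower drivers against 20.7%. On untransformed CPM, ZEB1 was the 1 driver of 5 called lower, against 11.2% of all genes, and OVOL1 was called higher, as 21.8% were.

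**Figure D2:**
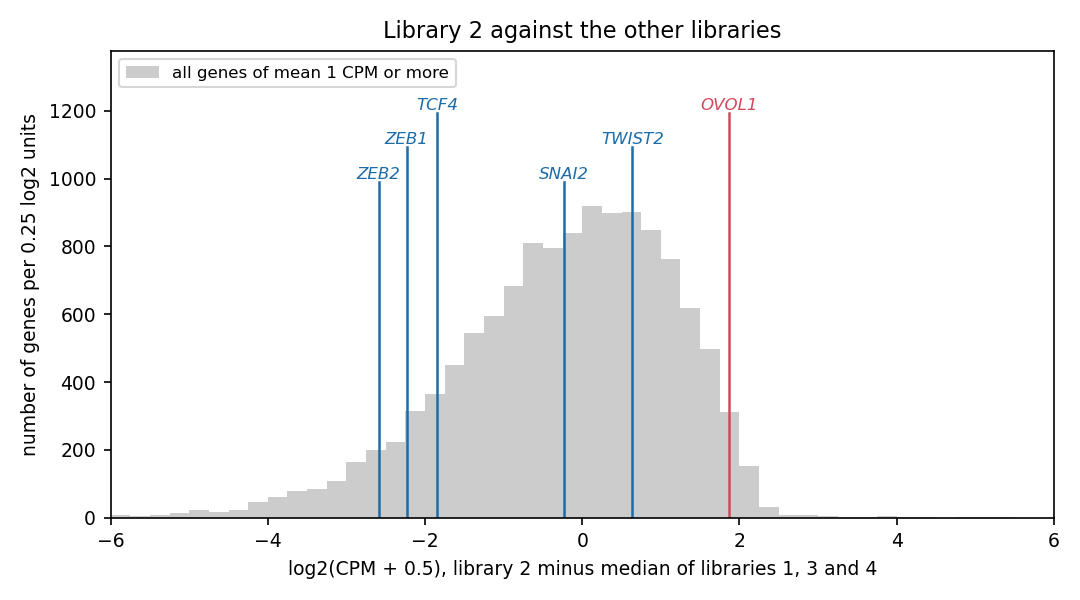
Grey bars count the 12453 genes averaging 1 CPM or more by the difference of library 2 from the median of libraries 1, 3 and 4, in log2(CPM + 0.5), and lines mark the drivers (blue) and OVOL1 (red). The few genes beyond the ends of the axis are not drawn. ZEB2 (-2.59), ZEB1 (-2.24) and TCF4 (-1.84) lie in the lower tail, SNAI2 (-0.23) and TWIST2 (0.64) near the middle, and OVOL1 (1.87) in the upper tail.

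Ratios between members within a library do not depend on scaling, apart from the pseudocount. Changes in them between libraries are free of length only if its effect on counts is alike in every library. That was not tested, and library 2 differed from the others across the table. The log2 ratio of ZEB1 to TCF4 was -0.92 in library 1, -0.91 in library 3 and -0.92 in library 4, and -1.30 in library 2. These genes thus had nearly the same proportion in the 3 similar libraries. Counting error alone was 3.52% for ZEB1 and 2.56% for TCF4 there, so these 3 ratios could not be told apart at this depth. The ratio of ZEB1 to ZEB2 moved more among libraries 1, 3 and 4, at -1.34, -1.66 and -1.95, with -1.30 in library 2. The ratio of ZEB1 to OVOL1 was 4.26, 4.22 and 3.94 in libraries 1, 3 and 4 and 0.10 in library 2, where their counts were 122 and 113.

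Of the other drivers of the transition, 6 of 7 matched genes were expressed (64.2% of all rows with a symbol were), and SNAI3 was not. TCF12, an E protein like TCF4, measured 487, 133, 522 and 444 CPM in libraries 1 to 4, and TCF3, the third E protein, 54.0, 72.6, 58.9 and 51.8 CPM. TCF12 was low in library 2 as TCF4 was, and TCF3 was not. FOXC1, a forkhead factor of periocular mesenchyme, measured 20.1 ± 4.39 CPM (SD, n = 4). TWIST1, PRRX1, GSC and SOX9 matched no row. All 4 ID genes, whose products bind E proteins and block their dimers, were expressed. ID2 measured 38.4 ± 8.53 CPM, ID3 27.7 ± 15.2 CPM, ID4 12.6 ± 1.37 CPM and ID1 5.87 ± 4.29 CPM, or 3.74 ± 0.573 CPM without library 2. Each ID gene was highest in library 2, as were 43.8% of all tested genes, though by the gap test library 2 lay apart for 0 of the 4. There, ID1 was at 12.3 CPM against 3.10 to 4.21 CPM elsewhere and ID3 at 49.9 CPM against 17.7 to 25.3 CPM. With plain CPM the library 2 difference of ID4 turned to -0.13.

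Among other transcription factors of epithelium, 0 of 8 matched genes were expressed (64.2% of all rows with a symbol were), and 7 were below 1 CPM in every library. GRHL1 was the exception, at 2.46, 0.247, 1.35 and 1.49 CPM, and it counted as expressed without library 2. ELF3 measured 0.274 ± 0.167 CPM (SD, n = 4), and TP63 had 2 counts in each of libraries 1 and 3 and none elsewhere. GRHL3 had 4 counts in library 3 and none elsewhere. OVOL3, ELF5 and EHF had no count, and OVOL2, KLF5 and FOXA1 matched no row.

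The corepressors through which SNAI and ZEB proteins silence genes were present, with 13 of 14 expressed, where 64.2% of all rows with a symbol were. CTBP1 and CTBP2, partners of the ZEB proteins, measured 93.9 ± 40.3 and 124 ± 10.3 CPM (SD, n = 4). KDM1A, the histone demethylase recruited by the SNAI proteins, measured 66.3 ± 7.09 CPM, HDAC2 205 ± 29.0 CPM, AJUBA 172 ± 26.6 CPM and SIN3A 144 ± 39.1 CPM. RCOR1, the scaffold that joins KDM1A to deacetylases, was not expressed by the rule because library 2 held 0.987 CPM where the others held 16.4 to 19.8. Of the genes that set SNAI protein stability, 9 of 10 were expressed, led by COPS2 at 231 ± 57.2 CPM, GSK3B, the kinase that marks SNAI1 for degradation, at 106 ± 30.2 CPM and FBXO11 at 103 ± 43.7 CPM.

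**Figure D3:**
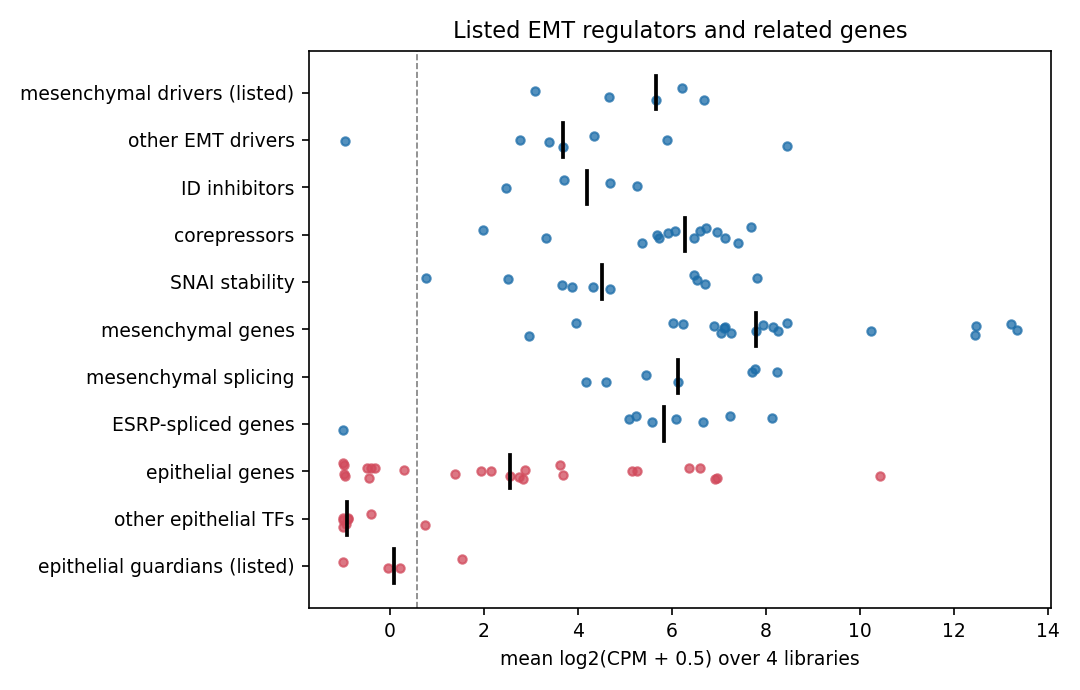
Mean log2(CPM + 0.5) over 4 libraries of each matched gene in the 2 groups of listed regulators and in 9 lists of related genes, with a black bar at the median of each list and a dashed line at 1 CPM. Listed drivers, corepressors, mesenchymal genes and splicing regulators lie right of the line, the other epithelial transcription factors (TFs) lie left of it except GRHL1, and epithelial genes lie on both sides.

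Genes that these factors are known to act on were read in the same way. All 19 matched mesenchymal genes were expressed, led by FN1, COL1A1 and VIM. CDH2, or N-cadherin, measured 99.6, 41.1, 100.5 and 75.3 CPM in libraries 1 to 4. Of 25 matched epithelial genes 15 were expressed and 8 lay below 1 CPM in every library. The expressed share was 60%, near the 64.2% of all rows with a symbol and the 52.9% of all rows. CDH1, or E-cadherin, measured 7.01, 4.56, 8.45 and 7.19 CPM, a mean of 6.80 ± 1.62 CPM (SD, n = 4). In library 2, where ZEB1 and ZEB2 were lowest, CDH1 was also lowest. It did not lie apart there by the gap test. Its difference was -0.60 log2 units, lower than in all but 36.0% of tested genes. EPCAM, an adhesion molecule of epithelium, measured 1.77, 3.27, 1.71 and 1.99 CPM, and CLDN7, a claudin, 0.257 ± 0.189 CPM. RAB25, a trafficking protein of epithelia, had no count. OCLN, which encodes occludin, was at 125 ± 18.03 CPM. DSP (129 ± 47.2 CPM) and PKP2 (99.0 ± 51.3 CPM), desmosomal genes, were lower in library 2, at 59.0 and 22.5 CPM, whereas KRT18 was higher there (3487 CPM, with a mean of 1004 ± 65.7 CPM without library 2). Epithelial genes thus lay on both sides in library 2, with 3 of 16 tested lying apart and lower and 2 apart and higher. Of the 19 mesenchymal genes, 6 lay apart and lower and 4 apart and higher, beside 21.5% and 14.7% of all genes.

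Of the list of other splicing regulators linked to the transition, all 7 matched genes were expressed, where 64.2% of all rows with a symbol were. RBFOX2 measured 71.8, 63.2, 70.8 and 71.6 CPM in libraries 1 to 4. QKI, an RNA-binding protein that promotes mesenchymal splice forms, measured 57.3, 1.60, 58.4 and 48.2 CPM, so library 2 was far below the others. PTBP1, HNRNPM and MBNL1 measured 305 ± 62.8, 218 ± 7.28 and 212 ± 49.8 CPM (SD, n = 4), and RBM47, a splicing regulator of epithelial cells, 17.96 ± 4.29 CPM. Of 8 genes whose splicing ESRP proteins control, 7 were expressed, with CD44 at 280 ± 33.5 CPM, CTNND1 at 153 ± 37.5 CPM and ENAH at 131 ± 74.4 CPM. FGFR2, the classic ESRP target, had no count. Gene totals do not show which splice form was made. In library 2, 6 of 7 tested genes of this list lay apart and lower, where 21.5% of all genes did. On untransformed CPM only CTNND1, RAPGEF1 and NUMB did, against 11.2% of all genes. In library 2 NUMB was at 8.45 CPM against 120 to 141 CPM, and RAPGEF1 at 5.24 CPM against 57.3 to 64.2 CPM.

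**Figure D4:**
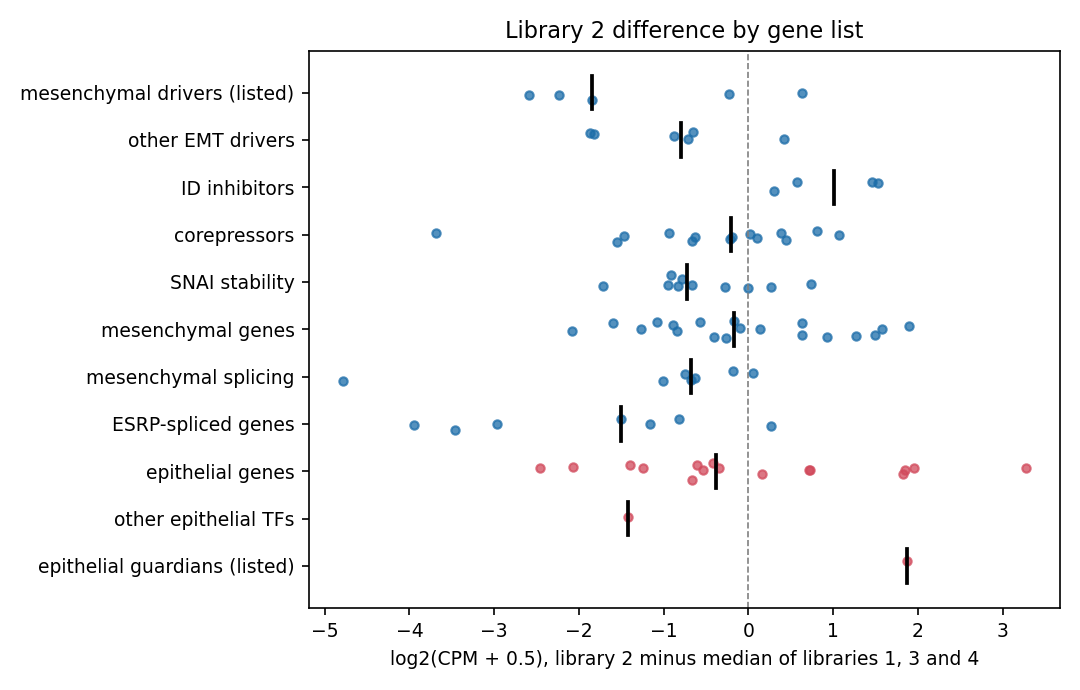
Difference of library 2 from the median of libraries 1, 3 and 4, in log2(CPM + 0.5), for each gene averaging 1 CPM or more in the same lists, with a black bar at the list median and a dashed line at 0. ESRP-spliced genes lie mostly left of the line, ID genes right of it, and epithelial and mesenchymal genes on both sides.

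Several of the drivers are also made by other cell types, so markers of those were read in the same libraries. The fibroblast and epithelial markers overlap with the lists above. COL1A1, COL3A1, PDGFRB, LUM, DCN and THY1 were also among the mesenchymal genes. CDH1, EPCAM, KRT18 and CLDN4 were also among the epithelial genes, and ESRP1 is a listed guardian. Of all rows with a symbol 64.2% were expressed. In bulk RNA, fewer cells of a type and less RNA per cell cannot be told apart. All 8 fibroblast markers were expressed, with summed levels between 23072 and 32752 CPM. Of 9 endothelial markers 1 (PECAM1) was expressed, or 2 with KDR when library 2 was left out, and the list summed to 4.44 to 7.997 CPM, with ROBO4 at 0. None of 8 lymphoid and dendritic cell markers was expressed. Their sum was 0.864 to 3.08 CPM, highest in library 2, and CD3E, CLEC4C and CD74 had no count. Of 4 matched melanocyte markers 1 (PMEL) was expressed, or 2 with MITF when library 2 was left out, and TYR had no count. Of 5 matched epithelial markers 3 were expressed, and their sum was 960.0 to 1087 CPM in libraries 1, 3 and 4 and 3495 CPM in library 2, nearly all of it KRT18. This sum was highest in the library with the lowest ZEB1, ZEB2 and TCF4, and its part in their levels was not tested. The fibroblast and melanocyte sums were also highest in library 2 (32752 and 46.4 CPM), and the endothelial sum was lowest there (4.44 CPM). Of the other epithelial markers, EPCAM was highest in library 2 (3.27 CPM), and CDH1 (4.56 CPM) and ESRP1 (0.247 CPM) were lowest. CLDN4 had no count there.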

How the data were processed

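Per the submitters' processing notes, Salmon and DESeq2 were used, without versions or roles. The authors deposited estimated counts per Ensembl rhesus gene, already whole numbers. For the build, annotation release, strandedness and filters, the sources used here give nothing. Salmon shares reads among similar transcripts, which adds assignment error beyond the counting limits.

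Symbols came from a table of Ensembl identifiers, which matched 14654 of 21314 rows. Rows without a symbol held 13.1% to 21.7% of counts. Counts were scaled by TMM in edgeR 4.0.16 (R 4.3.3) and given as CPM. The pseudocount was 0.5, and exact Poisson limits are 95%. Dixon's gap test, with 0.829 as the critical value, was run on log2(CPM + 0.5), a scale chosen after a simulation. In it 1 library was lowered 8-fold for 100 of 21314 genes, and the test found 70% of them on this scale and 17% on untransformed CPM. Of 100 genes raised 8-fold there, the test found 68% on this scale and 99% on untransformed CPM. Functions were tested on simulated data. With 1 group there was no contrast, and SDs measure only the spread between these samples. Of 3 planned comparisons of paralogues per length, 2 (ZEB1 with ZEB2, ESRP2 with ESRP1) lacked transcript lengths and 1 lacked SNAI1.

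The members, lists and tests were chosen with earlier results of these data known. Named were all members, the 3 highest and the uncounted genes of each list and 27 fixed names. RCOR1, PKP2, CDH3, S100A4, NUMB, RAPGEF1 and SNAI3 were chosen after their values were seen.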

Additional observations from a re-analysis of the deposited data

Results flagged for a closer look

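Dixon's gap test was run on 66 values, and 30 of them had 1 library standing clear of the rest. The values were the named genes with a count, the list medians and the difference of drivers and guardians. Chance gives about 1 value in 20, but over the whole table library 2 alone lay apart and lower for 21.5% of genes and higher for 14.7%. In 29 it was library 2, lower in 23 and higher in 6. They share a library and are not independent. Without 8 genes that were chosen after their values were seen or had counts in a single library, 23 of 58 values remained, with library 2 lower in 19 and higher in 4. The one other was GRHL3, where library 3 had the only counts (0.180 CPM).

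Among the listed regulators, library 2 was lowest for ZEB1 (7.53 CPM), ZEB2 (19.3 CPM) and TCF4 (19.3 CPM) and highest for OVOL1 (6.97 CPM). The median of the drivers was 4.31 log2(CPM + 0.5) in library 2, against 6.00 to 6.21 elsewhere, and their difference from the guardians was 3.92 log2 units.

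Among other drivers and cofactors, library 2 was lowest for TCF12 (133 CPM), FOXC1 (13.6 CPM), RCOR1 (0.987 CPM), SIN3A (85.9 CPM), FBXO11 (38.1 CPM) and COPS2 (146 CPM), and highest for CTBP1 (154 CPM) and GSK3B (151 CPM), and it held the only count of SNAI3 (0.0617 CPM). The median of the other drivers was 3.02 log2(CPM + 0.5) there. Among the named epithelial and mesenchymal genes it lay apart and lower for DSP (59.0 CPM), PKP2 (22.5 CPM) and FN1 (3228 CPM). It lay apart and higher for KRT18 (3487 CPM) and S100A4 (596 CPM). Unnamed genes of these lists also lay apart, such as CDH11 (lower) and LAD1 (higher), and are not among the flagged values. Among splicing regulators and genes spliced by ESRP proteins it was lowest for RBFOX2 (63.2 CPM), QKI (1.60 CPM), CTNND1 (97.3 CPM), ENAH (21.5 CPM), RAPGEF1 (5.24 CPM) and NUMB (8.45 CPM). The medians of these lists in library 2 were 5.99 and 4.42 log2(CPM + 0.5).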

How the results depend on the processing

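The count of expressed drivers was 5 under every scaling, threshold, filter and left-out library tried. The count of guardians was 1, except for 0 at a threshold of 2 CPM, where OVOL1 was lost. Other epithelial transcription factors counted 0 to 1 when each library was left out, with 1 (GRHL1) without library 2. Counts of the other lists moved by at most 2 genes. The difference of medians between drivers and guardians was 5.57 and ranged from 5.36 to 6.18 log2 units with each library left out, the highest being without library 2. It was 6.31 with a pseudocount of 0.1, 5.02 with 1 and 5.08 with means in place of medians, and since the guardians lie near 0 CPM the pseudocount bears on it. It was 4.14 with filterByExpr, which by construction leaves OVOL1 as the only guardian. The number of drivers for which library 2 lay apart and lower was 3, and 1 with the gap test on untransformed CPM, an alternative chosen after seeing the data. No direction of a listed regulator in library 2 was reversed by plain CPM or DESeq2 1.42.0 size factors. No paired analysis was possible because there is 1 group. The comparisons of paralogues per length were not run. Depth limits ESRP1 and ESRP2, with 43 and 59 counts over the 4 libraries.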

Other observations

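CDH3, or P-cadherin, an epithelial cadherin, measured 1.001, 18.6, 1.48 and 6.15 CPM in libraries 1 to 4. Library 4 was thus above libraries 1 and 3 for this gene, whereas the listed drivers other than ZEB2 lay close together in these 3.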
